A study of Mus musculus with 6 samples.

Results

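Among single cells of the mouse embryonic stem cell line IB10, 75 of 478 (15.7%) carried raised shares of transcripts from both chromosome 8 and chromosome 6. The 75 cells were chosen by their own counts: a cell of 10000 or more transcript counts entered when its log2 share of chromosome 8 transcripts was above 0 and its log2 share of chromosome 6 transcripts was above 0.25. Both shares were taken against the mean of the 6 libraries of the series, and 905 cells of the series reached 10000 counts. They were compared with the 380 IB10 cells of the same libraries that passed neither threshold, here called cells with neither gain. "Gain" stands here for a raised share of RNA, since no DNA was measured.

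RNA was counted cell by cell with SORT-seq, a plate form of CEL-Seq2 in which each 3' transcript end carries a molecular identifier (UMI) and each well holds ERCC spike-in RNA. R1 and IB10, established mouse embryonic stem cell lines, each gave 1 library of 188 wells in each of 3 cultures, all with LIF in serum-free N2B27 medium. In the labels LIF_2i stands for LIF with 3 µM CHIR99021 (a GSK3 inhibitor) and 0.1 µM PD325901 (a MEK inhibitor), here IB10 cells at passage 28. The rosette_LIM cells had 0.1 µM PD325901 and 2 µM IWP2, an inhibitor of WNT secretion, for 5 passages and were at passage 33, and the primed_4d cells, at passage 28, had spent 4 days with Activin A (20 ng/ml), FGF2 (12 ng/ml) and IWP2 (2 µM). Both classes of cells come from the same sample of each culture, so they share its passage and medium, and the 3 IB10 libraries are the replicates of every comparison between them. The labels do not say whether the cells with both gains descend from 1 clone.

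Cultured mouse embryonic stem cells are known to acquire extra chromosomes, of which trisomy 8 is the most frequently described. An extra copy raises the transcripts of most genes on that chromosome in proportion, and genes elsewhere can follow through regulators or through a change in growth. Naive embryonic stem cells express Klf4, Esrrb and Zfp42, and on leaving that state they raise Pou3f1, Dnmt3b and other genes of formative and primed pluripotency.

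The cells with both gains made up 13.6% of IB10 cells in LIF_2i (25 of 184, exact 95% interval 8.99 to 19.4%). In rosette_LIM they were 15.0% (22 of 147, 9.62 to 21.8%) and in primed_4d 19% (28 of 147, 13.0 to 26.3%). The intervals, which cover counting error only, overlap between the 3 cultures. The gains came together in most cells: 75 of the 94 IB10 cells past the chromosome 8 threshold (79.8%) were also past that of chromosome 6. Of the 79 cells past the chromosome 6 threshold, 75 (94.9%) were past that of chromosome 8. That left 19 cells with the chromosome 8 gain alone (5 in LIF_2i, 8 in rosette_LIM and 6 in primed_4d) and 4 cells with the chromosome 6 gain alone. In R1 the picture was another: 341 of 427 cells were past the chromosome 8 threshold alone, 3 were past both and none was past that of chromosome 6 alone.

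Since the thresholds used these shares, the values that follow are a description. In the cells with both gains the chromosome 8 share ran from 0.05 to 0.35 (median 0.21) and the chromosome 6 share from 0.31 to 0.54 (median 0.44). In cells with neither gain the chromosome 8 share ran from −0.47 to −0.04 (median −0.25) and the chromosome 6 share from −0.65 to 0.15 (median −0.03). Just inside the chromosome 8 threshold lay a cell of the chromosome 8 only class at 0.01 and a cell with both gains at 0.05, and just outside it cells with neither gain at −0.04 and −0.07. Just inside the chromosome 6 threshold lay cells with both gains at 0.31 and 0.34, and just outside it cells with neither gain at 0.15 and 0.15. The classes therefore left an empty band on the chromosome 6 axis. When every other gene of each chromosome was used to pick the cells, 71 of 72 cells picked from one set of genes were past both thresholds in the remaining genes. With the sets exchanged it was 71 of 74, and 0 of the 381 and 379 cells with neither gain did so.

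**Figure D1:**
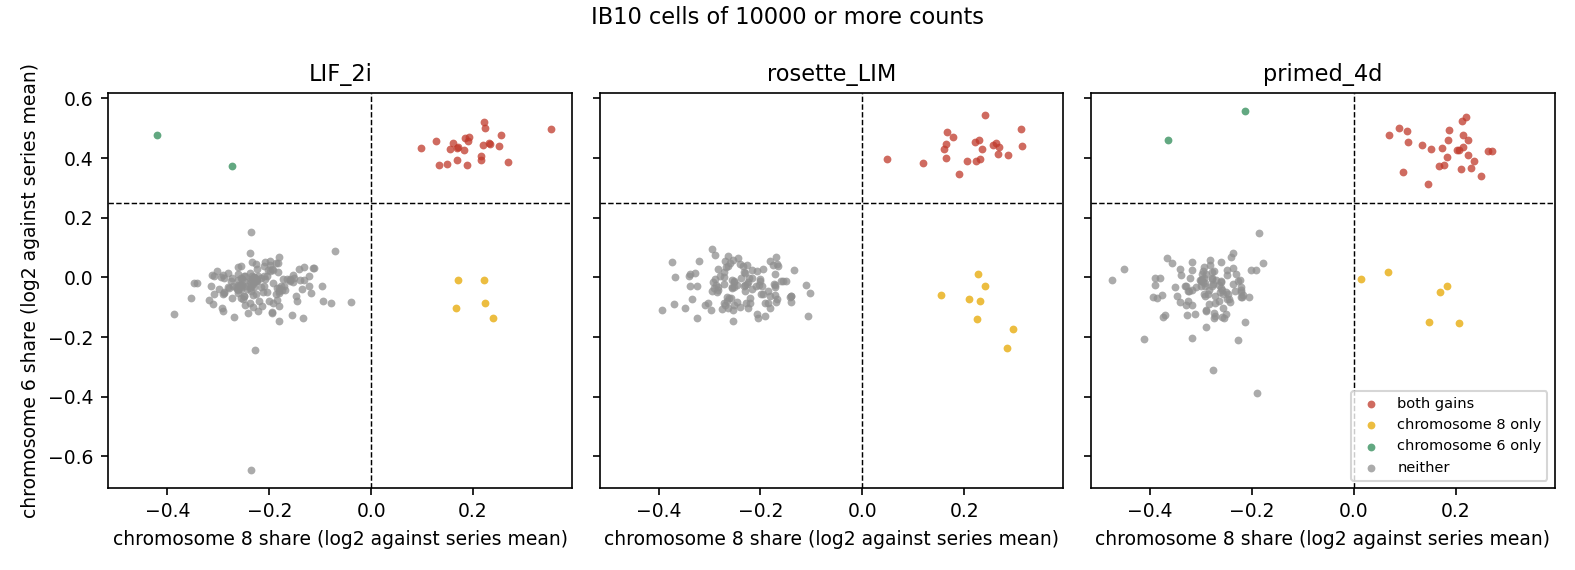
Each point is an IB10 cell of 10000 or more counts, placed by the log2 share of its transcripts from chromosome 8 (x axis) and chromosome 6 (y axis) against the mean of the 6 libraries, with 1 panel per culture; dashed lines mark the thresholds of 0 and 0.25. The 75 cells with both gains lie in the upper right and are separate from the 380 cells with neither gain in the lower left in each of the 3 cultures.

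The gains covered both chromosomes along their whole measured length. Relative to the counts from the other chromosomes, summed chromosome 8 counts were higher by 0.47, 0.51 and 0.53 on the log2 scale in LIF_2i, rosette_LIM and primed_4d. For chromosome 6 the differences were 0.52, 0.51 and 0.54. An extra copy beside a pair would give 0.58 if transcripts followed the number of copies. With the genes of each chromosome cut into 5 stretches in order of position (115 genes each on chromosome 8 and 96 or 97 on chromosome 6), the mean difference lay between 0.48 and 0.53 on chromosome 8. On chromosome 6 it lay between 0.48 and 0.61, with the first stretch highest. No stretch lacked the rise in any of the 3 cultures. For the R1 cells with the chromosome 8 gain alone the chromosome 8 difference was 0.47, 0.46 and 0.52 in the same cultures.

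**Figure D2:**
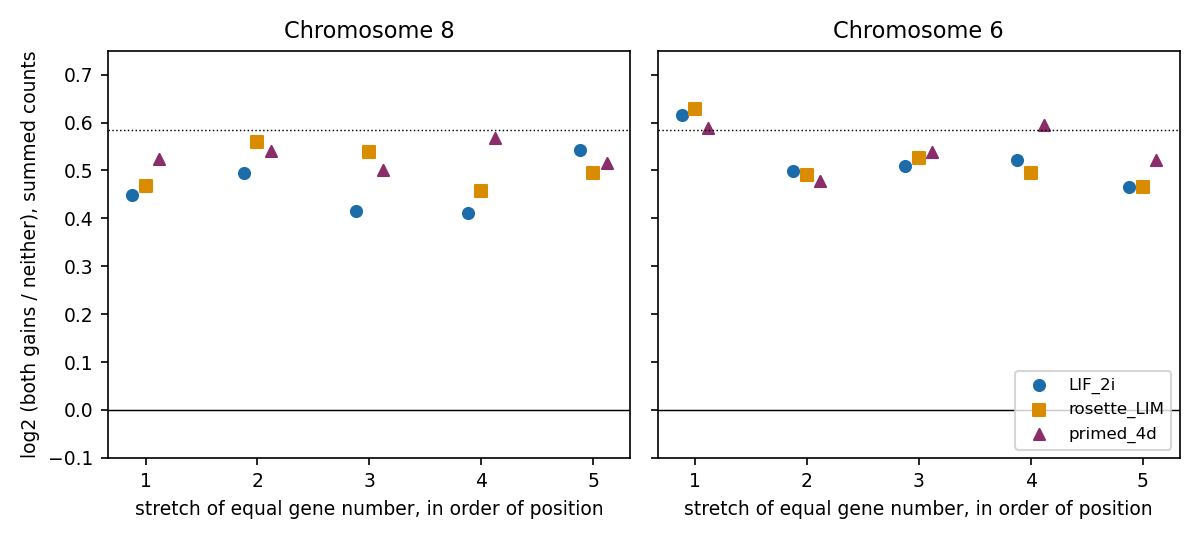
Log2 ratio of summed counts in cells with both gains to cells with neither gain (y axis) for 5 stretches of equal gene number in order along chromosomes 8 and 6 (x axis); each symbol is 1 IB10 library and the dotted line marks log2(3/2), 0.58. All stretches lie at 0.41 or above in all 3 libraries.

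Among chromosomes that the rule did not use, the other autosomes and the X showed no shift of that size, while the thinly counted Y did. Over the 17 other autosomes the difference stayed between −0.07 and 0.05 in every library, and the X chromosome was at 0.01, −0.02 and −0.03. Chromosome 9 was lowest in rosette_LIM (−0.07) and chromosomes 10 and 17 were the highest there (0.05 each). The Y chromosome was higher by 0.38, 0.21 and 0.59. It rests on 2147 counts in the cells with both gains, and without Erdr1, a repeat-rich gene at the X and Y boundary, the differences were 0.89, −0.04 and 0.61. The cells with the chromosome 8 gain alone were also above those with neither gain, by 0.31, 0.45 and 0.59. With 3 paired libraries the exact two-sided sign-flip test cannot go below p = 0.25, which is the value the Y chromosome reached. The 10 of 17 other autosomes with the same sign in all 3 libraries reached it too, so it does not set the Y apart.

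**Figure D3:**
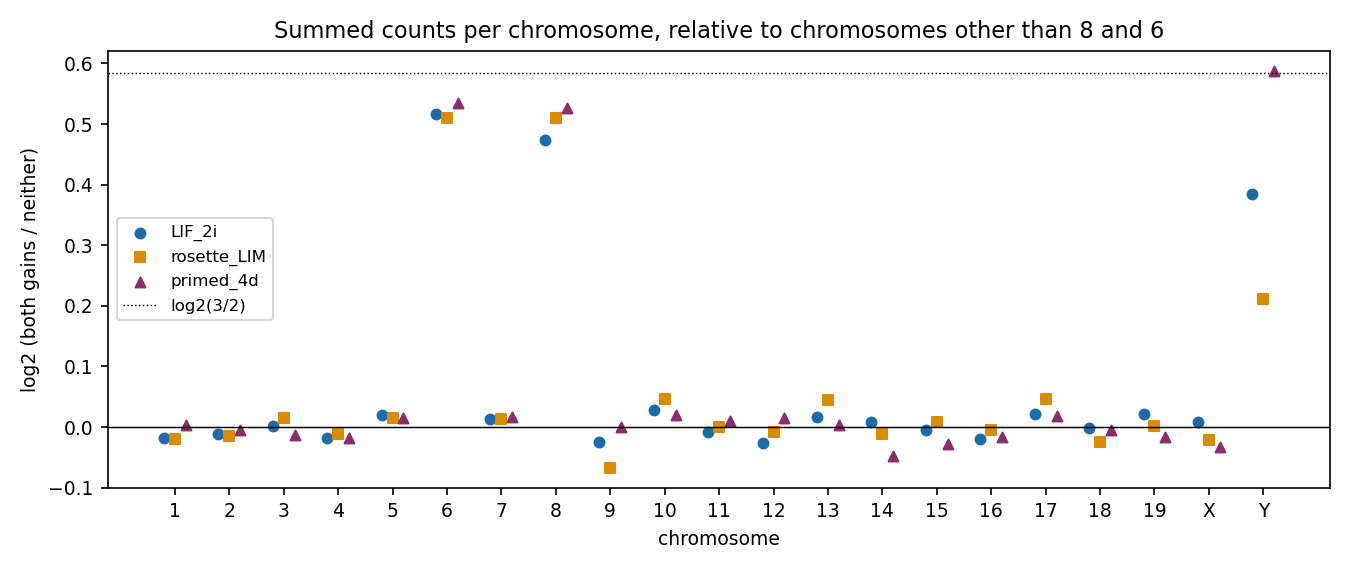
Log2 ratio of summed counts per chromosome in cells with both gains to cells with neither gain (y axis), relative to all counts from chromosomes other than 8 and 6, for each mouse chromosome (x axis) and IB10 library (symbols). Chromosomes 6 and 8 lie between 0.47 and 0.54, the other 17 autosomes between −0.07 and 0.05, and the thinly counted Y chromosome between 0.21 and 0.59.

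Most genes of the gained chromosomes shared in the rise, which the rule fixes for their sum but not for each gene. Of 983 chromosome 8 and 999 chromosome 6 rows, 578 and 484 passed the filter on low counts. Their median log2 differences were 0.48 and 0.50. Higher values in all 3 libraries were found for 402 chromosome 8 genes (69.6%) and 329 chromosome 6 genes (68.0%), against 15% of the 9206 genes tested on other chromosomes. In the lists of known genes, 14 of 17 measured on chromosome 8 and 13 of 18 on chromosome 6 were higher in all 3 libraries. Levels below are CPM, gene counts scaled to a common total of counts from the other chromosomes.

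On chromosome 8, the ribosomal protein gene Rpl13 went from 3915, 3545 and 4437 CPM in cells with neither gain to 5680.4, 5088 and 6306 CPM in LIF_2i, rosette_LIM and primed_4d, close to the chromosome as a whole. The AP-1 subunit Jund went further, from 90.1, 115 and 200 CPM to 154, 247 and 418 CPM. The adhesion molecule Cdh1 (E-cadherin) was at 476, 375 and 376 CPM against 277, 198 and 322 CPM. The naive-state gene Zfp42 (Rex1) was higher by 0.51 and 0.42 in LIF_2i and rosette_LIM but by 1.38 in primed_4d, where it was at 494 against 190 CPM. The naive-state factor Klf2, on the same chromosome, was higher by only 0.07, 0.03 and 0.34. The metallothioneins Mt1 and Mt2, which bind zinc and copper, were lower in LIF_2i (−0.11 and −0.22) and rosette_LIM (−0.07 and −0.08) and higher in primed_4d (0.87 each).

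On chromosome 6, the chaperonin subunit Cct7 went from 777, 732 and 819 CPM to 1143, 1159 and 1181 CPM, and the replication helicase subunit Mcm2 from 404, 424 and 380 CPM to 543, 669 and 605 CPM. The translesion repair ligase Rad18 was higher by 1.02, 0.96 and 0.92. Some known genes of chromosome 6 were lower in spite of the raised chromosome. The pluripotency factor Nanog was at 50.2, 18.5 and 0 CPM against 50.4, 26.6 and 4.65 CPM, where the 0 in primed_4d allows up to 5.04 CPM. Dppa3 (Stella), a maternal factor that protects DNA methylation, was at 3.59, 5.56 and 15.1 CPM against 13.1, 18.6 and 18.0 CPM. Its values of 3.59 and 5.56 CPM rest on 3 counts each. The lactate dehydrogenase subunit Ldhb was at 75.3 against 204 CPM in LIF_2i and 239 against 340 CPM in rosette_LIM, but at 166 against 126 CPM in primed_4d.

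The largest rises among the 701 genes of both chromosomes with at least 20 CPM in cells with neither gain were those of Mest and Peg10, which are imprinted genes of chromosome 6 expressed from the paternal copy. They were picked out after their values were seen. Without TMM factors, Mest was at 332, 303 and 410 CPM in the cells with both gains and at 84.5, 84.1 and 166 CPM in cells with neither. Peg10 was at 50.5, 35.7 and 178 CPM against 11.6, 11.6 and 84.2 CPM. Both lay in every culture above what the chromosome gained, with log2 differences of 1.97, 1.85 and 1.30 for Mest and 2.12, 1.62 and 1.08 for Peg10. Sgce, the paternally expressed neighbour of Peg10, was at 11.1, 13.2 and 16.5 CPM against 3.34, 1.83 and 13.0 CPM. Nap1l5, also paternally expressed, was at 6.16, 5.64 and 16.5 CPM against 0.786, 1.22 and 2.72 CPM, on 18 counts against 17. Of the other known or presumed imprinted genes there that passed the filter, Ppp1r9a, in the cluster of Peg10, was at 37, 30.1 and 41.2 CPM against 14.9, 6.40 and 23.8 CPM. Pon2, in the same cluster, was at 4.93, 0 and 8.23 CPM against 4.32, 3.05 and 20.5 CPM and did not share the rise. Mest was also higher in the cells with the chromosome 8 gain alone in LIF_2i (191 CPM) and rosette_LIM (159 CPM), but not in primed_4d (128 CPM), on 5 to 8 cells per culture. In R1, where chromosome 6 was not gained, Mest was at 158, 163 and 237 CPM with the chromosome 8 gain against 93.2, 100 and 171 CPM without it. On GRCm38, Mest lies on chromosome 6 from 30733506 to 30748466, where its end overlaps the neighbouring Copg2 (30747554 to 30896815), and Peg10 from 4747306 to 4760517.

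Genes on other chromosomes, which the rule did not use, were tested with edgeR's quasi-likelihood test on the counts summed by library and class, with the library as block. Of 9206 genes, 38 rose and 55 fell in the cells with both gains (1.01% called, of which 0.413% higher and 0.597% lower; adjusted p under 0.05). The rises had the same sign in all 3 libraries for 38 of 38 genes and the falls for 48 of 55. The test rests on the same 3 libraries, so the call itself favours a shared sign. Over all 9206 tested genes, 15% were higher and 17.4% lower in all 3 libraries. DESeq2 called 6 rises and 9 falls, all 15 among edgeR's 93. Of the 37 calls named below it kept 8: Tagln2, Spry4, Manba, Dnmt3l, Etv4, Pttg1, Ephx2 and Gtsf1l. In what follows, a fold change is log2 of both gains over neither with its standard error, and levels are CPM of the counts from other chromosomes, scaled by TMM.

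The clearest single difference was the rise of the actin-binding protein Tagln2 (transgelin 2, chromosome 1 from 172500246 to 172507375). It was at 313, 315 and 208 CPM in the cells with both gains and at 130, 99.3 and 82.7 CPM in cells with neither, so that the lowest of the former was above the highest of the latter (1.41 ± 0.12, edgeR adjusted p = 1.12e-06). Cytoplasmic gamma-actin, Actg1, fell from 2519, 2731 and 1876 CPM to 1555, 1372 and 1381 CPM (−0.71 ± 0.08, edgeR adjusted p = 8.45e-05). It was chosen after its values were seen. Its sequence is close to that of Actb and of actin pseudogenes, and the labels do not say how reads with several matches were counted.

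Other large rises were of genes at low level. The intermediate filament keratin Krt8 was at 55.0, 48.2 and 16.8 CPM against 9.38, 3.36 and 11.8 CPM (2.31 ± 0.39, edgeR adjusted p = 0.00534). The difference was large in LIF_2i and rosette_LIM and small in primed_4d, and the cell with most Krt8 held 9.77% of its counts in the class. With each cell thinned to 10000 counts, 30.7% of cells with both gains and 4.74% with neither had a Krt8 UMI. Its partner Krt18, too low to be tested, was at 7.17, 1.85 and 1.68 CPM against 1.56, 1.83 and 16.7 CPM. The calcium-dependent membrane binder Anxa2 was at 20.3, 11.1 and 18.5 CPM against 3.91, 3.05 and 7.44 CPM (1.86 ± 0.43, edgeR adjusted p = 0.0341). The guidance ligand Sema4a (1.5 ± 0.30), the POU factor Pou2f3 (1.52 ± 0.35), the ER retention receptor Kdelr3 (1.46 ± 0.31), the ciliary gene Evc2 (1.73 ± 0.42), the arginine deiminase Padi4 (1.74 ± 0.41) and the endothelial receptor Robo4 (2.36 ± 0.56) completed the largest rises of protein-coding genes, at 11.1 to 31.9 CPM on average. Snora44, a small nucleolar RNA that cannot be told apart here from its host transcript, had 9, 3 and 8 counts against 10, 0 and 1 in the far larger sums of cells with neither gain. Robo4 had 10, 6 and 6 counts against 13, 5 and 7. Both genes passed the filter on low counts only through the sums with both gains, where they are high. Their place among the largest rises is therefore favoured by the filter itself.

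Among the largest falls, the epoxide hydrolase Ephx2 was at 20.3, 18.5 and 15.1 CPM against 77.6, 77.0 and 27.3 CPM (−1.74 ± 0.25, edgeR adjusted p = 0.00127). Gtsf1l, a relative of the germline piRNA factor Gtsf1, was at 7.17, 20.4 and 20.2 CPM against 47.5, 61.4 and 47.1 CPM (−1.79 ± 0.27, edgeR adjusted p = 0.00224). For Ephx2 and Gtsf1l the highest level with both gains was below the lowest with neither. The fatty acid transporter Slc27a2 (−1.61 ± 0.29), the corepressor Runx1t1 (−1.60 ± 0.34), the neurogenic factor Neurod1 (−1.87 ± 0.39), the protease inhibitor Serpine2 (−1.92 ± 0.43), the calcium-binding protein gene Efhc2 (−2.38 ± 0.45) and the unnamed transcript 1700030C10Rik (−1.51 ± 0.29) fell in all 3 libraries. They were at 3.93 to 13.4 CPM on average in the cells with both gains and at 19.2 to 39.1 CPM with neither. Efhc2, for example, gave 1, 3 and 3 counts in the cells with both gains.

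**Figure D4:**
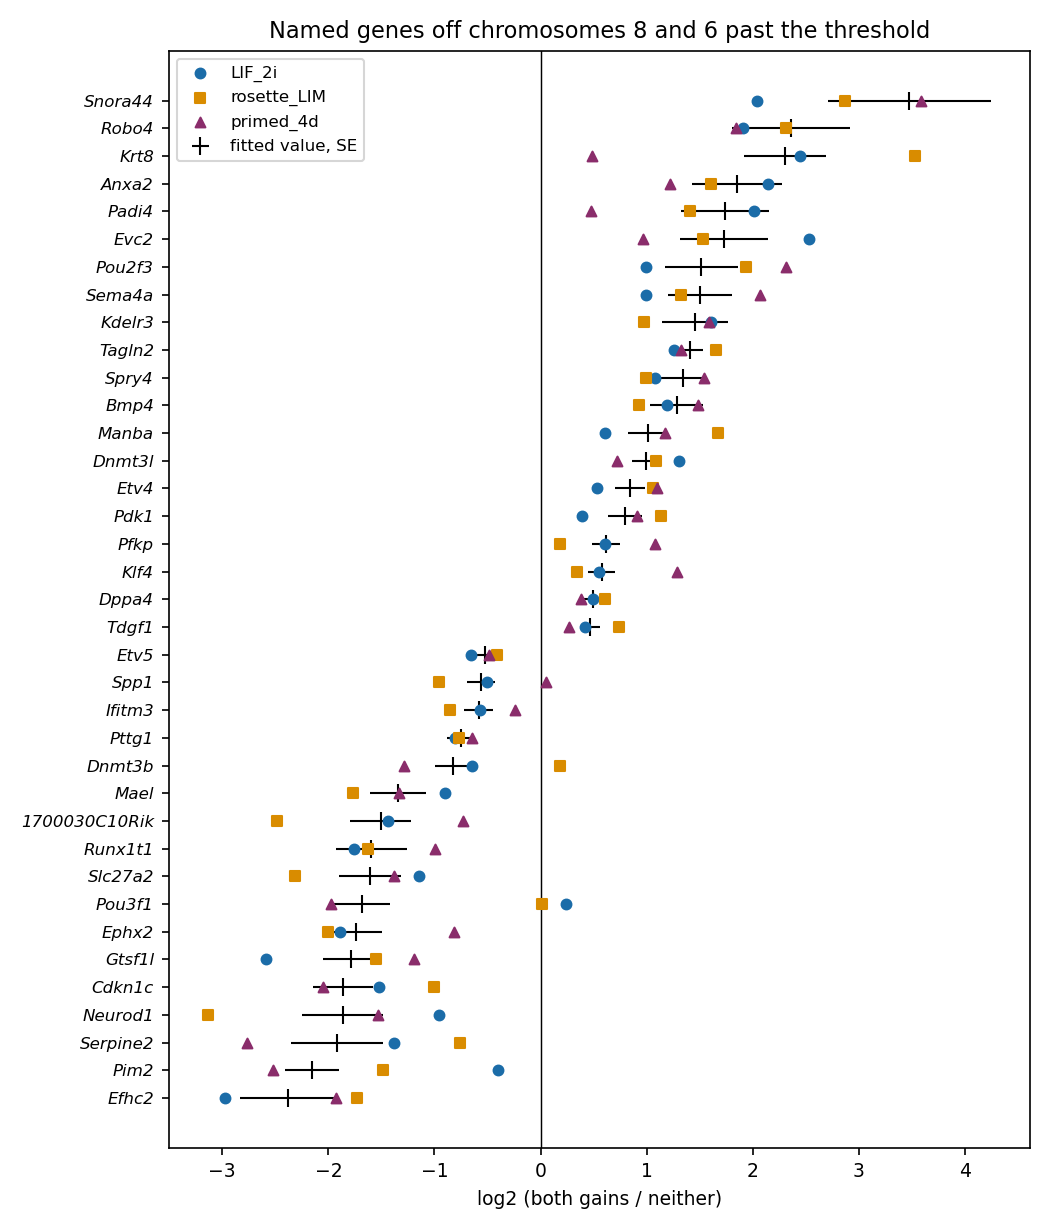
Log2 ratio of cells with both gains to cells with neither gain (x axis) for the 37 named genes on other chromosomes that passed the threshold (y axis), in each IB10 library (symbols) and as fitted by edgeR with its standard error (black). All 20 rises lie above 0 in all 3 libraries; Pou3f1, Dnmt3b and Spp1 change sign between libraries.

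Genes of the FGF and ERK pathway moved in both directions. FGF signals through MEK and ERK to Etv4 and Etv5, ETS factors, and to the Sprouty and Dusp genes, which feed back on the pathway. Of 9 tested targets, 2 rose and 1 fell, and the median was 0.49 against 0.00 over all genes. The feedback inhibitor Spry4 rose from 13.1, 9.77 and 42.8 CPM to 28.7, 20.4 and 126 CPM (1.35 ± 0.21, edgeR adjusted p = 0.00317). Etv4 rose from 146, 35.1 and 92.3 CPM to 212, 74.2 and 198 CPM (0.84 ± 0.14, edgeR adjusted p = 0.00534). Etv5 fell from 442, 420 and 295 CPM to 280, 315 and 210 CPM (−0.53 ± 0.10, edgeR adjusted p = 0.0117). The rises were also present in LIF_2i and rosette_LIM, whose medium held the MEK inhibitor, with Spry4 there on 24 and 11 counts with both gains. The part of MEK and ERK signalling in these changes was not tested.

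The DNA methylation genes likewise split, with 1 rise and 1 fall among 9 tested. Dnmt3l, the cofactor of the de novo methyltransferases, rose from 40.1, 70.9 and 232 CPM to 100, 152 and 381 CPM (0.99 ± 0.14, edgeR adjusted p = 0.000852). The methyltransferase Dnmt3b was lower in LIF_2i (77.7 against 122 CPM) and in primed_4d (491 against 1198 CPM) and not in rosette_LIM (79.7 against 69.9 CPM), with −0.83 ± 0.17 and an edgeR adjusted p of 0.0174 over the 3 cultures. Among germline genes whose promoters are silenced by methylation, 1 of 11 tested was called: Mael, a piRNA pathway protein, fell (−1.34 ± 0.27, edgeR adjusted p = 0.0132). Of 15 tested imprinted genes on other chromosomes, 1 was called: the growth inhibitor Cdkn1c, maternally expressed, fell from 5.08, 23.2 and 149 CPM to 1.20, 11.1 and 35.3 CPM (−1.86 ± 0.28, edgeR adjusted p = 0.00224).

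Core pluripotency genes stayed expressed. The core factor Pou5f1 (Oct4) was at 723, 512 and 701 CPM in the cells with both gains against 723, 571 and 821 CPM (−0.13 ± 0.08, edgeR adjusted p = 0.620). Of 12 tested core genes, 2 rose: Tdgf1 (Cripto), a Nodal coreceptor and Nodal target (0.47 ± 0.09), and Dppa4 (0.49 ± 0.11), with edgeR adjusted p of 0.0132 and 0.0342. Among 19 naive-state genes, 2 rose and 1 fell. Klf4, also a LIF target, rose from 349, 248 and 23.5 CPM to 512, 315 and 58.8 CPM (0.58 ± 0.13, edgeR adjusted p = 0.0330). The lysosomal mannosidase Manba rose (1.02 ± 0.19, edgeR adjusted p = 0.00948), and osteopontin, Spp1, fell (−0.56 ± 0.13, edgeR adjusted p = 0.0437) with no lower level in primed_4d. Of 19 formative and primed genes, 1 rose, Etv4, and 5 fell, the kinase Pim2, the POU factor Pou3f1 (Oct6), Dnmt3b, Etv5 and the tight-junction protein Cldn6.

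The primed_4d culture carried much of that last group. There the cells with both gains had 99.1 CPM of Pou3f1 against 393 CPM in cells with neither gain, 85.7 against 498 CPM of Pim2, and 25.2 against 110 CPM of Cldn6. In LIF_2i and rosette_LIM Pou3f1 was at 4.78 and 11.1 CPM against 3.91 and 11 CPM, and without primed_4d its fold change was 0.13 (edgeR adjusted p = 0.956). Naive-state genes stood the other way in primed_4d: Esrrb was at 175 against 57.3 CPM, Klf5 at 192 against 108 CPM, Fbxo15 at 116 against 58.9 CPM and Nr5a2 at 21.8 against 8.36 CPM. In the same culture Zic2 was at 108 against 226 CPM and Sall2 at 10.1 against 37.5 CPM, while Lef1 (222 against 181 CPM) and Dnmt3a (716 against 621 CPM) were not lower. Over the lists, 14 of 19 naive-state genes were higher (median 0.33) and 13 of 19 formative and primed genes lower (median −0.49) in primed_4d, where 51.4% of all tested genes were lower. In LIF_2i 6 of 19 naive-state genes were higher and 10 of 19 formative and primed genes lower, and in rosette_LIM 10 and 9. In primed_4d the cells with both gains also had 51.0 UMIs per ERCC count against 82.7 and a median Rn45s (ribosomal RNA) share of 2.79% against 1.54%, and the part of these in the result was not tested. Each culture is 1 library, so the difference between cultures was not tested.

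**Figure D5:**
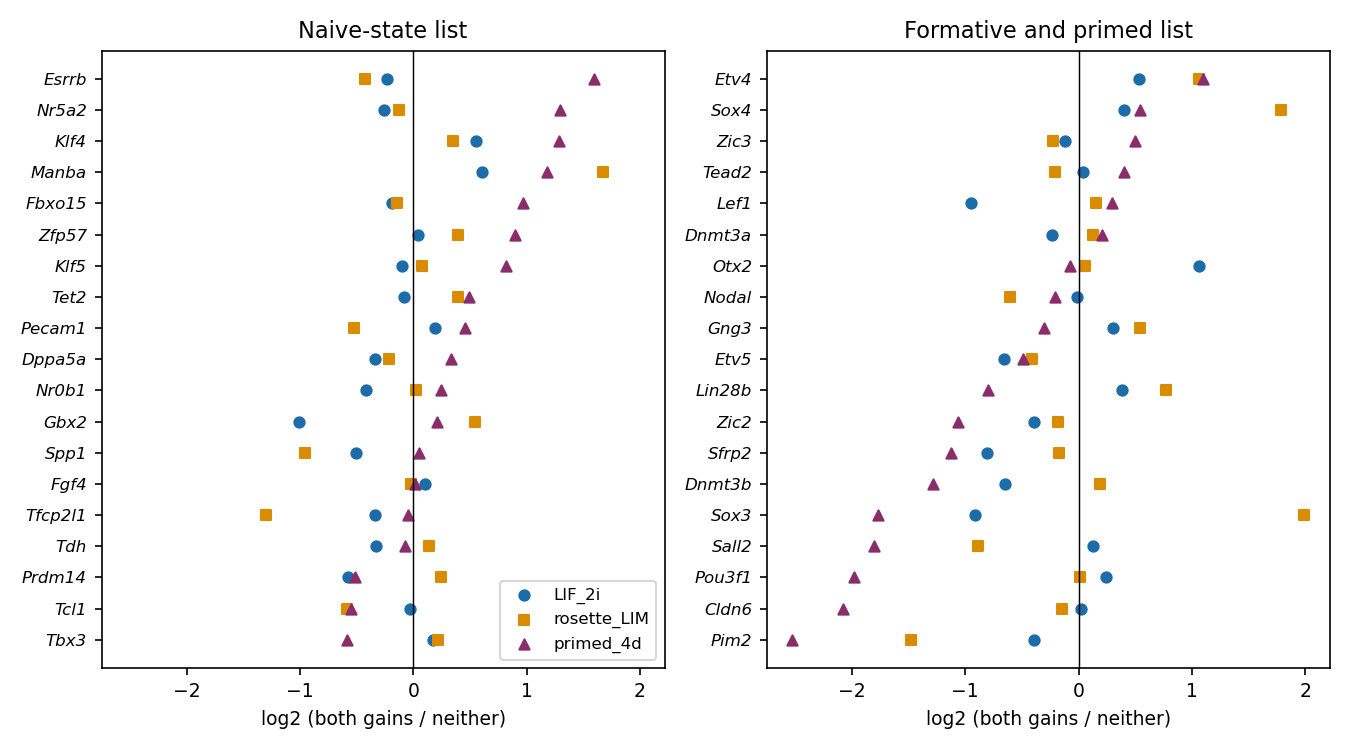
Log2 ratio of cells with both gains to cells with neither gain (x axis) for 19 naive-state genes (left) and 19 formative and primed genes (right) off chromosomes 8 and 6 (y axis), in each IB10 library (symbols). In primed_4d 14 of 19 naive-state genes lie above 0 and 13 of 19 formative and primed genes below 0.

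The other signalling lists and the glycolysis and interferon lists held 1 or 2 calls each. Of 9 tested WNT targets 1 was called: Bmp4, a growth factor, rose (1.29 ± 0.25, edgeR adjusted p = 0.0132). Of 13 LIF and STAT3 targets only Klf4 was called, and of 10 Nodal and Activin targets only Tdgf1, both rising. Of 14 glycolysis genes on other chromosomes 2 rose, the pyruvate dehydrogenase kinase Pdk1 (0.80 ± 0.16) and the phosphofructokinase Pfkp (0.62 ± 0.13), with edgeR adjusted p of 0.0138 and 0.0214. Of 6 interferon genes 1 fell, the membrane protein Ifitm3 (−0.58 ± 0.14, edgeR adjusted p = 0.0437).

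Lists of cell division, stress and maintenance pathways held 1 call, that of Pttg1, where 1.01% of all genes were called, so the low count is not a result about them. An unadjusted p under 0.05 was found for 11.3% of all tested genes (1039 of 9206), which is the background for the counts that follow. Of 22 chromosome segregation genes 1 fell, the securin Pttg1, which restrains separase until anaphase. It was at 109, 108 and 95.8 CPM against 191, 184 and 150 CPM, without overlap (−0.75 ± 0.13, edgeR adjusted p = 0.00534). edgeR called 0 of 17 p53 targets (4 at an unadjusted p under 0.05), among them Mdm2 (−0.40 ± 0.12, edgeR adjusted p = 0.135) and Ccng1 (−0.31 ± 0.10, edgeR adjusted p = 0.194). It called 0 of 11 apoptosis, 17 DNA damage, 20 cytosolic chaperone, 30 proteasome, 14 ER stress, 19 lysosome and autophagy and 21 ribosome biogenesis genes, with 2, 2, 2, 2, 1, 1 and 3 of them at an unadjusted p under 0.05. Of the proteasome genes 15 of 30 were lower in all 3 libraries, against 17.4% of all tested genes, with a median of −0.06. Of 17 amino acid response genes under ATF4, 0 were called and 6 had an unadjusted p under 0.05, with a median of 0.63 in LIF_2i, 0.12 in rosette_LIM and −0.11 in primed_4d. edgeR called 0 of 43 ribosomal protein, 21 oxidative phosphorylation, 13 mitochondrially encoded, 18 cholesterol synthesis, 17 S phase and 22 G2/M genes, with 3, 1, 1, 4, 2 and 0 at an unadjusted p under 0.05. DESeq2 called 0 genes in each of the 20 lists without an edgeR call. It also called 0 in 9 of the 14 lists with one: core pluripotency, WNT, LIF and STAT3, Nodal and Activin, glycolysis, interferon, imprinted, germline and trophectoderm genes. The summed share of the G2/M genes was 1.08, 1.07 and 1.06 times that of cells with neither gain, and the summed share of the S phase genes 0.951, 0.997 and 1.10 times.

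The cells with both gains yielded less RNA per spike-in count than those with neither, as did the cells with the chromosome 8 gain alone. Their median of UMIs per ERCC count was 66.7, 43.0 and 51.0 in LIF_2i, rosette_LIM and primed_4d, against 76.2, 51.7 and 82.7 in cells with neither gain. With chromosome 8 alone it was 67.5, 43.3 and 34.4. It was lower in 3 of 3 libraries (mean log2 difference −0.38 ± 0.27 SD, n = 3, exact two-sided sign-flip p = 0.25, the smallest that 3 pairs allow), while ERCC counts themselves differed by 1.01 to 1.08 times. Counts from the ungained chromosomes per ERCC count were 0.853, 0.788 and 0.599 times those of cells with neither gain. Counts from chromosome 8 per ERCC count were 1.16, 1.14 and 0.852 times, so that on this scale primed_4d showed no rise. Scaled by ERCC counts in place of TMM, the median of all tested genes moved to −0.25 and the calls to 6 higher and 70 lower, a share of rises that went from 38 of 93 to 6 of 76. On that scale 15 of the 20 named rises lost their call, namely Spry4, Etv4, Dnmt3l, Manba, Bmp4, Klf4, Tdgf1, Dppa4, Pdk1, Pfkp, Anxa2, Robo4, Padi4, Evc2 and Kdelr3, against 1 fall, that of Spp1. The 5 rises that kept theirs were Tagln2, Krt8, Sema4a, Pou2f3 and Snora44. Which scale describes the cells was not tested.

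Markers of other cell types, several of them at 0, summed to far less than those of pluripotent stem cells in both classes. A count of 0 allows up to 3.59 to 5.56 CPM in the sums with both gains, against 0.586 to 0.929 CPM in the larger sums with neither. Col3a1 and Zscan4d were at 0 in cells with neither gain too. The zeros listed below therefore do not set the classes apart. Of 7 primitive endoderm markers Foxa2 was at 0 in the cells with both gains, and the sum was 8.40 to 15.5 CPM against 5.86 to 9.60 CPM; Gata4 was at 7.17, 7.42 and 6.72 CPM against 1.37, 1.53 and 2.48 CPM and did not pass (edgeR adjusted p = 0.197). Of 7 trophectoderm markers, Krt8 among them, Cdx2 and Elf5 were at 0, with a sum of 33.6 to 146 CPM against 44.9 to 102 CPM. Of 5 feeder fibroblast markers Col1a2 and Col3a1 were at 0, with a sum of 161 to 284 CPM, nearly all of it Vim, against 237 to 424 CPM. Of 5 mesendoderm markers T and Mesp1 were at 0 (8.40 to 46.6 CPM against 5.89 to 35.0 CPM). Of 5 neuroectoderm markers Map2 was at 0 (136 to 269 CPM against 86 to 208 CPM, of which Tubb3, on chromosome 8, was the largest part). Among these Sox1, also on chromosome 8, was at 15.5, 24.1 and 43.7 CPM against 4.50, 7.03 and 11 CPM, on 13, 13 and 26 counts with both gains, a larger difference than that of the chromosome. Of 5 markers of 2-cell-like cells Zscan4d, Tcstv1 and Tcstv3 were at 0 (4.78 to 22.2 CPM against 13.7 to 27.5 CPM). The 10 pluripotent stem cell markers summed to 4920 to 5509 CPM against 4474 to 5148 CPM. The part of these other markers in the results above was not tested.

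The 19 IB10 cells with the chromosome 8 gain alone were set against the same cells with neither gain, which both comparisons share. On sums of 5 to 8 cells, edgeR called 6 of 7232 genes (0.083%), all higher. Without TMM factors, Rtp3, a receptor transporting protein gene on chromosome 9, was in that class at 995, 756 and 36.6 CPM in LIF_2i, rosette_LIM and primed_4d, against 212, 88.3 and 29.6 CPM with both gains and 159, 166 and 30.8 CPM with neither. Its fold change was 2.25 ± 0.20 for chromosome 8 alone (edgeR adjusted p = 4.51e-10) and −0.12 ± 0.19 for both gains (edgeR adjusted p = 0.874). The imprinted RNA Meg3 was called as well (1.13 ± 0.22, edgeR adjusted p = 0.0152), with 39.6% of its counts in 1 cell; the other 4 were Kcnq1ot1, Gm17821, Def6 and Ddx43. Tested directly, the cells with both gains differed from those with chromosome 8 alone in 33 genes (0.456%), 10 higher and 23 lower. Among them were Rtp3 (−2.38 ± 0.22), Dnmt3l (1.34 ± 0.26), Etv4 (1.39 ± 0.30), Tdgf1 (0.69 ± 0.15), Pttg1 (−0.92 ± 0.21) and Pou3f1 (−1.87 ± 0.37), with edgeR adjusted p of 2.20e-09, 0.00664, 0.0204, 0.0175, 0.0322 and 0.00664. So were Neurod1 (−3.57 ± 0.60), Serpine2 (−3.52 ± 0.61), Atf4 (1.22 ± 0.21) and Ccng1 (−0.86 ± 0.16), with edgeR adjusted p of 0.00167, 0.00184, 0.00184 and 0.00352. Tagln2 (0.81 ± 0.20) did not pass (edgeR adjusted p = 0.0559). Against cells with neither gain, some genes named above moved the same way with chromosome 8 alone, without passing. They included Tagln2 (0.61 ± 0.21), Krt8 (1.43 ± 0.75), Evc2 (2.14 ± 0.70), Ephx2 (−1.15 ± 0.40) and Slc27a2 (−1.09 ± 0.52), at edgeR adjusted p of 0.302 to 0.684. Others moved the other way, such as Neurod1 (1.61 ± 0.44) and Serpine2 (1.57 ± 0.44), with edgeR adjusted p of 0.148 and 0.165. The 4 cells with the chromosome 6 gain alone were too few to be compared, so a gain of chromosome 6 and the pair of gains cannot be told apart.

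The R1 libraries were at passages 24, 28 and 24 in LIF_2i, rosette_LIM and primed_4d, with 6 passages in the rosette_LIM medium, each unlike IB10. In R1, cells with the chromosome 8 gain alone (112, 143 and 86 cells) against R1 cells with neither gain (43, 28 and 12 cells) gave 2 calls among 9322 genes (0.0215%). The 12 R1 primed_4d cells with neither gain have shares down to −1.25 for chromosome 8 and −1.04 for chromosome 6. Without TMM factors Kcnq1ot1 was at 7465 CPM in them, against 1404 CPM with the gain. The part of these cells in the low number of calls was not tested. Rtp3 rose in R1 too, from 141 and 245 CPM to 396 and 631 CPM in LIF_2i and rosette_LIM, but in primed_4d it was at 47.7 CPM with the gain against 67.1 CPM, again without TMM factors (1.17 ± 0.19, edgeR adjusted p = 0.0448). Fxyd6, a regulator of the sodium pump, fell in R1 (−0.94 ± 0.13, edgeR adjusted p = 0.00926). It also fell in the IB10 cells with both gains, from 123, 207 and 46.5 CPM to 64.5, 79.7 and 28.6 CPM (−1.06 ± 0.16, edgeR adjusted p = 0.00285). Some other genes named for the cells with both gains moved the same way in R1 without passing there. They included Krt8 (1.66 ± 0.47), Ephx2 (−0.56 ± 0.20), Gtsf1l (−0.55 ± 0.21) and Mael (−0.70 ± 0.27), at edgeR adjusted p of 0.526 to 0.661. Others did not, such as Tagln2 (0.02 ± 0.16) and Serpine2 (0.95 ± 0.30), with edgeR adjusted p of 0.999 and 0.583. A test of the difference between the lines, which also differ in the chromosome 6 gain and in passage, called 3 of 9212 genes (0.0326%): Tagln2, Pim2 and Actg1.

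Which genes were called depended on the libraries included. Without LIF_2i there were 16 rises and 29 falls, without rosette_LIM 14 and 19, and without primed_4d 134 and 152. Krt8, Bmp4, Pfkp, Klf4, Etv5, Pttg1, Serpine2 and Efhc2 were among 19 of 37 named calls lost without LIF_2i. Sema4a, Tdgf1, Pdk1, Mael, Slc27a2, Neurod1 and Snora44 were among 18 lost without rosette_LIM, and Anxa2, Runx1t1, Robo4, Padi4, Evc2, Pou2f3, Kdelr3, Dppa4, Spp1, Ifitm3 and 1700030C10Rik were lost with either of these left out. Without primed_4d the calls of Pdk1, Dnmt3b, Mael, Cdkn1c, Serpine2 and Pim2 were lost, and Pou3f1 changed sign. Of the same 37, Tagln2, Spry4, Manba, Dnmt3l, Etv4, Ephx2 and Gtsf1l passed with each library left out in turn.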

How the data were processed

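The deposited table holds, per gene and well, an expected count that the authors derived from UMIs, not scaled for depth. BWA and the builds mm10 and GRCm38 are named, per the submitters' processing notes; no source used here gives the BWA version or the annotation. All 1128 wells (188 per library) were read, and 905 held 10000 or more counts outside ERCC rows. IB10 libraries summed to 7806882 (LIF_2i), 5164933 (rosette_LIM) and 5298692 (primed_4d) counts, which sets the counting precision of each class.

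Chromosome shares left out Rn45s and mitochondrial rows. Counts were summed by library and class (at least 10 cells), rounded, and filtered with filterByExpr (minimum count 10). They were tested with edgeR 4.0.16 in R 4.3.3 as library plus class, with library sizes and TMM factors from genes off chromosomes 8 and 6 without Rn45s and mitochondrial rows. Tests were two-sided with Benjamini-Hochberg adjustment at 0.05, and standard errors were taken from the fold change and its F. The sums hold 532063 to 811615 counts from the other chromosomes with both gains and 3281636 to 5088763 with neither. The 2 sums of a library come from the same sample, and their deviations from the class means correlated by 0.63, 0.52 and 0.72, so the library stayed as block. Each culture has 1 library per line. The p-values rest on the spread of the class difference over the 3 IB10 libraries. For each gene, edgeR draws that spread towards the spread of the other genes (median prior degrees of freedom 18.3). DESeq2 1.42.0 was an alternative. Cells of more than 3 times the median depth were looked for as doublets, and there were 0 in IB10; no doublet caller was run. Column names give wells, not barcodes, so shared barcodes could not be counted.

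Named genes on other chromosomes are the 10 largest rises and falls among called genes of the same sign in all 3 libraries, and up to 4 called members of each list (or up to 2 of smallest p). On chromosomes 8 and 6 they are lists of known genes and the 5 with most counts, from which examples are given. Members and lists were chosen with earlier results of these data known. The fit with chromosome 8 alone (minimum of 5 cells), the R1 fits and the ERCC scaling were added after seeing the data. Coordinates are RefSeq positions on GRCm38.p6; 19404 of 19532 gene rows matched.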

Additional observations from a re-analysis of the deposited data

Results flagged for a closer look

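The response of 3 genes differed between the IB10 cells with both gains and the R1 cells with the chromosome 8 gain, by a test of the difference in 1 fit over both lines (edgeR, 9212 genes). Tagln2 rose by 1.41 ± 0.12 in IB10 and stood at 0.02 ± 0.16 in R1, a difference of 1.40 ± 0.22 (edgeR adjusted p = 0.0149). The R1 value averages unlike changes: without TMM factors Tagln2 was at 195 against 122 CPM in LIF_2i, 187 against 223 CPM in rosette_LIM and 105 against 158 CPM in primed_4d. The R1 primed_4d cells with neither gain are only 12. Their shares reach down to −1.25 for chromosome 8 and −1.04 for chromosome 6. Pim2 fell in IB10 and stood at −0.19 ± 0.14 in R1, a difference of −1.99 ± 0.31 (edgeR adjusted p = 0.0149). Its log2 difference in IB10 was −0.40 in LIF_2i, −1.48 in rosette_LIM and −2.53 in primed_4d, and its IB10 call was lost without primed_4d. In R1 it was at 11.2 against 16.3, 17.6 against 28.4 and 557 against 572 CPM in the same order, without TMM factors. Actg1 fell in IB10 and stood at 0.04 ± 0.08 in R1, a difference of −0.75 ± 0.12 (edgeR adjusted p = 0.0179). The line, its passage and the chromosome 6 gain cannot be told apart in these differences.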

How the results depend on the processing

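The counts of 38 rises and 55 falls moved by more than 1.5 times under several settings. The number higher and lower was 6 and 9 with DESeq2, 81 and 172 with no filter on low counts, 72 and 158 on the same chromosomes when chromosome 8 and 6 genes entered the fit, 16 and 35 with cells thinned to 10000 counts, and 0 and 0 with no replicate block (235 genes at an unadjusted p under 0.05). With sums scaled by ERCC counts, chosen after seeing the data, it was 6 higher, beside 70 lower. Leaving out 1 library gave 14 to 134 higher and 19 to 152 lower. It stayed within 1.5 times with library totals alone, a filter minimum of 30, a depth minimum of 20000, a gap around the thresholds, shares without the 10 most abundant genes, and the fit of 3 classes. Leaving out cells above 3 times the median depth removed 0 cells. Of 37 named calls, 37 were lost with no replicate block, 29 with DESeq2, 10 with cells thinned (12 more were not tested there; Spry4, Dnmt3l and Pttg1 were among the 10), 19 without LIF_2i, 18 without rosette_LIM and 16 with ERCC scaling, and 1 changed sign: Pou3f1, from −1.85 to 0.13 with 1 library left out, at 0.13 without primed_4d. The number of cells with both gains was 58 at a depth minimum of 20000, 74 without the 10 most abundant genes and 67 with the gap. A fit of all 4 classes was not run, since the single-gain classes had under 10 cells per library.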

Other observations

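Some further calls were picked out after their values were seen. The heparin-binding growth factor Mdk (midkine) was higher in the cells with both gains in each culture, at 606, 757 and 1516 CPM against 446, 473 and 1205 CPM (0.48 ± 0.08, edgeR adjusted p = 0.00534). The elongin subunit gene Tceb2 was lower, at 256, 328 and 533 CPM against 619, 696 and 604 CPM (−0.83 ± 0.14, edgeR adjusted p = 0.00534), with a small difference in primed_4d. Among the other chromosomes, chromosome 9 held 8 of the 38 rises, with 577 of the 9206 tested genes.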
